A study of Mus musculus with 11 samples.

Results

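Levels and changes of 10 genes were followed across genotypes: the receptor tyrosine kinase genes Pdgfra, Pdgfrb, Fgfr1, Fgfr2, Egfr and Igf1r, and the PDGF ligand genes Pdgfa, Pdgfb, Pdgfc and Pdgfd. They were chosen by symbol, with earlier results of these data known but by no threshold on their values, and all 10 were found among the 21684 genes of the deposited table. RNA was sequenced from NIH/3T3 cells, an established mouse embryonic fibroblast line that forms primary cilia when serum is withdrawn. There were 11 libraries in 4 genotypes: 2 of WT cells and 3 each of Xap5 KO, Nono KO and Sox5 KO cells. All 4 genotypes, WT included, had spent 24 h in serum-free DMEM before RNA was taken, so no serum-fed control enters any comparison. Xap5 is the gene listed under the mouse symbol Fam50a, Nono encodes an RNA- and DNA-binding nuclear protein, and Sox5 encodes an HMG-box transcription factor. The labels do not say how many clones stand behind a knockout, and each knockout is treated as 1 line. Nor do they say whether the libraries of a genotype came from separate cultures, so the p-values measure only the spread between these libraries.

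The receptors are single-pass membrane proteins that dimerise when a ligand binds, phosphorylate each other on tyrosine, and recruit adaptors that lead to the RAS-ERK and PI3K-AKT cascades. PDGF-A and PDGF-C bind PDGFR-alpha, PDGF-B binds both PDGF receptors, and PDGF-D binds mainly PDGFR-beta. In quiescent fibroblasts PDGFR-alpha is known to gather in the primary cilium and to signal from there to ERK and AKT, while PDGFR-beta sits mostly in the plasma membrane outside it.

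The promoter windows of the members whose level differed most between genotypes are shown first, so that the measured changes can be read beside the sequence upstream of each gene. They are the 250 bases before the annotated start, from RefSeq on the build GRCm38.p6, where 7 of the 10 members had a window. The Pdgfra window lies at chr5:75152001-75152250 on the plus strand, with a GC content of 54.4%. The Egfr window lies at chr11:16751953-16752202 on the plus strand, with a GC content of 60.8%. The Pdgfc window lies at chr3:81036166-81036415 on the plus strand, with a GC content of 50.8%. Capitals mark a match to a searched motif.
Pdgfra: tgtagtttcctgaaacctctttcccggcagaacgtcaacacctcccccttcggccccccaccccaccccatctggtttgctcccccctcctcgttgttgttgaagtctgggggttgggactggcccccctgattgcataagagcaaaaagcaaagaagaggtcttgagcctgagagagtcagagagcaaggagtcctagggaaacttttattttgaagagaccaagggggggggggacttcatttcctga
Egfr: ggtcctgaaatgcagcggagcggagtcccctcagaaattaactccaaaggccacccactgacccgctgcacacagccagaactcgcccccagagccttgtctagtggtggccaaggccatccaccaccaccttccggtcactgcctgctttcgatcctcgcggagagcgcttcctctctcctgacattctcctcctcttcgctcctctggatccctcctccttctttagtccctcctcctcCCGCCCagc
Pdgfc: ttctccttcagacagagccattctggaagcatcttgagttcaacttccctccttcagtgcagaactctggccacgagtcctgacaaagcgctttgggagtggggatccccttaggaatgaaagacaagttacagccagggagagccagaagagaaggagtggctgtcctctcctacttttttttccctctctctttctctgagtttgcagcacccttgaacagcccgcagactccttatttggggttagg
In all 4 motifs were searched on both strands, and none of them contains another. The SOX core AACAAT was present in 9.42% of 32851 windows of the same length, the GC box GGGCGG in 32.7%, the CCAAT box CCAAT in 33.85%, and the TATA box TATAAA in 12.4%. Egfr held 1 GC box, on the minus strand and 9 bases before the start, and the Pdgfra and Pdgfc windows held no match to any of the 4. None of the 8 windows of members held the SOX core. A match or its absence describes only these letters in this window. The bases that follow the annotated start were found in 2 GENCODE M21 transcripts of Egfr and 1 of Pdgfc, but in none of Pdgfra. The Pdgfra start was thus not matched between the 2 annotations.

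Values are depth-scaled counts on TMM-scaled library sizes (CPM), and changes are log2 fold changes with their standard error (SE). Tests are quasi-likelihood tests in edgeR, with p-values adjusted over 13332 genes after Benjamini and Hochberg, and a gene is called at an adjusted p under 0.05. Library totals ran from 30205878 to 43498383 counts. The targeted genes were lower under their own label: Fam50a was at 62.9 to 64.8 CPM in WT and 7.49 to 7.91 CPM in Xap5 KO, and Nono at 350.8 to 357.4 CPM in WT and 27.6 to 34.0 CPM in Nono KO. Sox5 was at 45.9 to 49.7 CPM in WT and 12.6 to 13.9 CPM in Sox5 KO, but also at 11.9 to 15.02 CPM in Xap5 KO and 7.01 to 8.76 CPM in Nono KO, so low Sox5 RNA does not set the Sox5 KO libraries apart. All 10 fibroblast markers were detected in at least 1 library of every genotype. Their summed level was 23310 to 23410 CPM in WT, 17440 to 18830 CPM in Xap5 KO, 48190 to 52840 CPM in Nono KO and 20080 to 20460 CPM in Sox5 KO. Fn1 was a large part of that sum, at means of 13960, 8894, 20510 and 6299 CPM in the same order. Gene by gene, 3 of the 10 were called higher and 5 lower in Xap5 KO, 9 and 0 in Nono KO, and 8 and 2 in Sox5 KO. Fap was barely detected in WT, at 0.0681 ± 0.0963 CPM (SD, n = 2), and was called higher in all 3 knockouts. Of all tested genes, 45.5%, 48.6% and 60.9% were called in those comparisons against WT. The 3 cycling markers summed to 155.2 to 187.4 CPM in WT, 356.9 to 399.0 CPM in Xap5 KO, 211.9 to 291.1 CPM in Nono KO and 154.2 to 177.8 CPM in Sox5 KO. In Sox5 KO, Mki67 was called lower (log2 fold change -0.55) and Ccnb1 higher (0.74), and Top2a was not called. The 5 epithelial markers summed to at most 0.323 CPM in any library, with Krt8 and Krt18 at 0 throughout. The 3 immune markers summed to 7.11 to 10.9 CPM in Nono KO against 1.91 to 2.28 CPM in WT, 2.93 to 3.38 CPM in Xap5 KO and 1.88 to 2.68 CPM in Sox5 KO, with Cd3e at 0 throughout. Of these, Ptprc was called higher in Nono KO (6.66 ± 0.655 CPM, SD, n = 3, against 0.107 ± 0.0235, n = 2, in WT) and lower in Sox5 KO, where it was at 0. A count of 0 allows up to 3 counts, or 0.0928 to 0.102 CPM in the Sox5 KO libraries. That is close to the WT level of Ptprc, so its fall in Sox5 KO is bounded only at 1.11-fold. The 3 muscle markers summed to at most 0.204 CPM in WT and to 0.974 to 3.86 CPM in the knockouts, with Des at 0 in WT and called higher in all 3 knockouts, and Myod1 at 0 throughout. The endothelial marker Tek and the adipocyte marker Fabp4 were called higher in Nono KO, at 1.80 ± 0.861 and 0.482 ± 0.233 CPM (SD, n = 3). The other markers on their lists did not follow: Cdh5, Adipoq and Plin1 were at 0 in Nono KO. Pecam1 was not called there (log2 fold change -0.58). The 3 mural markers summed to 0.471 to 2.68 CPM in WT, 0.283 to 0.511 CPM in Xap5 KO, 1.05 to 1.66 CPM in Nono KO and 0.464 to 0.638 CPM in Sox5 KO. Notch3, at 0.431 ± 0.610 CPM in WT (SD, n = 2), was called lower in Xap5 KO, where it was at 0, and not in the others. Rgs5 was called lower in Sox5 KO (log2 fold change -1.93) and not in the others. The part of these marker differences in the results was not tested. In these bulk samples, fewer cells of a type and less RNA per cell cannot be told apart.

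In WT cells the members ranged over more than 3 orders of magnitude. Per kilobase of the longest transcript, Fgfr1 stood highest at 261.0 ± 0.411 CPM per kb (SD, n = 2), followed by Pdgfra at 129.3 ± 3.93 and Pdgfrb at 89.8 ± 0.198. Igf1r (22.5 ± 0.707) and Fgfr2 (19.4 ± 0.0875) came next in CPM per kb, then the ligands Pdgfa (14.1 ± 1.08) and Pdgfc (7.04 ± 0.371). Egfr (0.519 ± 0.0639) and Pdgfb (0.171 ± 0.0449) were far below these on the same scale, and Pdgfd was at 0 in every library of every genotype. The order changed in the knockouts. In Sox5 KO, Pdgfrb (81.5 ± 4.92 CPM per kb, n = 3) stood above Pdgfra (63.3 ± 1.59), and Pdgfb above Egfr. In Xap5 KO, Pdgfa (19.0 ± 0.790 CPM per kb) stood above Fgfr2 (14.6 ± 0.825), and Pdgfc (23.2 ± 1.83) stood beside Igf1r (22.7 ± 0.647), within their spread, as did Pdgfb beside Egfr. Fgfr2, Igf1r and Pdgfc in Nono KO, and Fgfr2, Igf1r and Pdgfa in Sox5 KO, also lay within each other's spread.

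**Figure D1:**
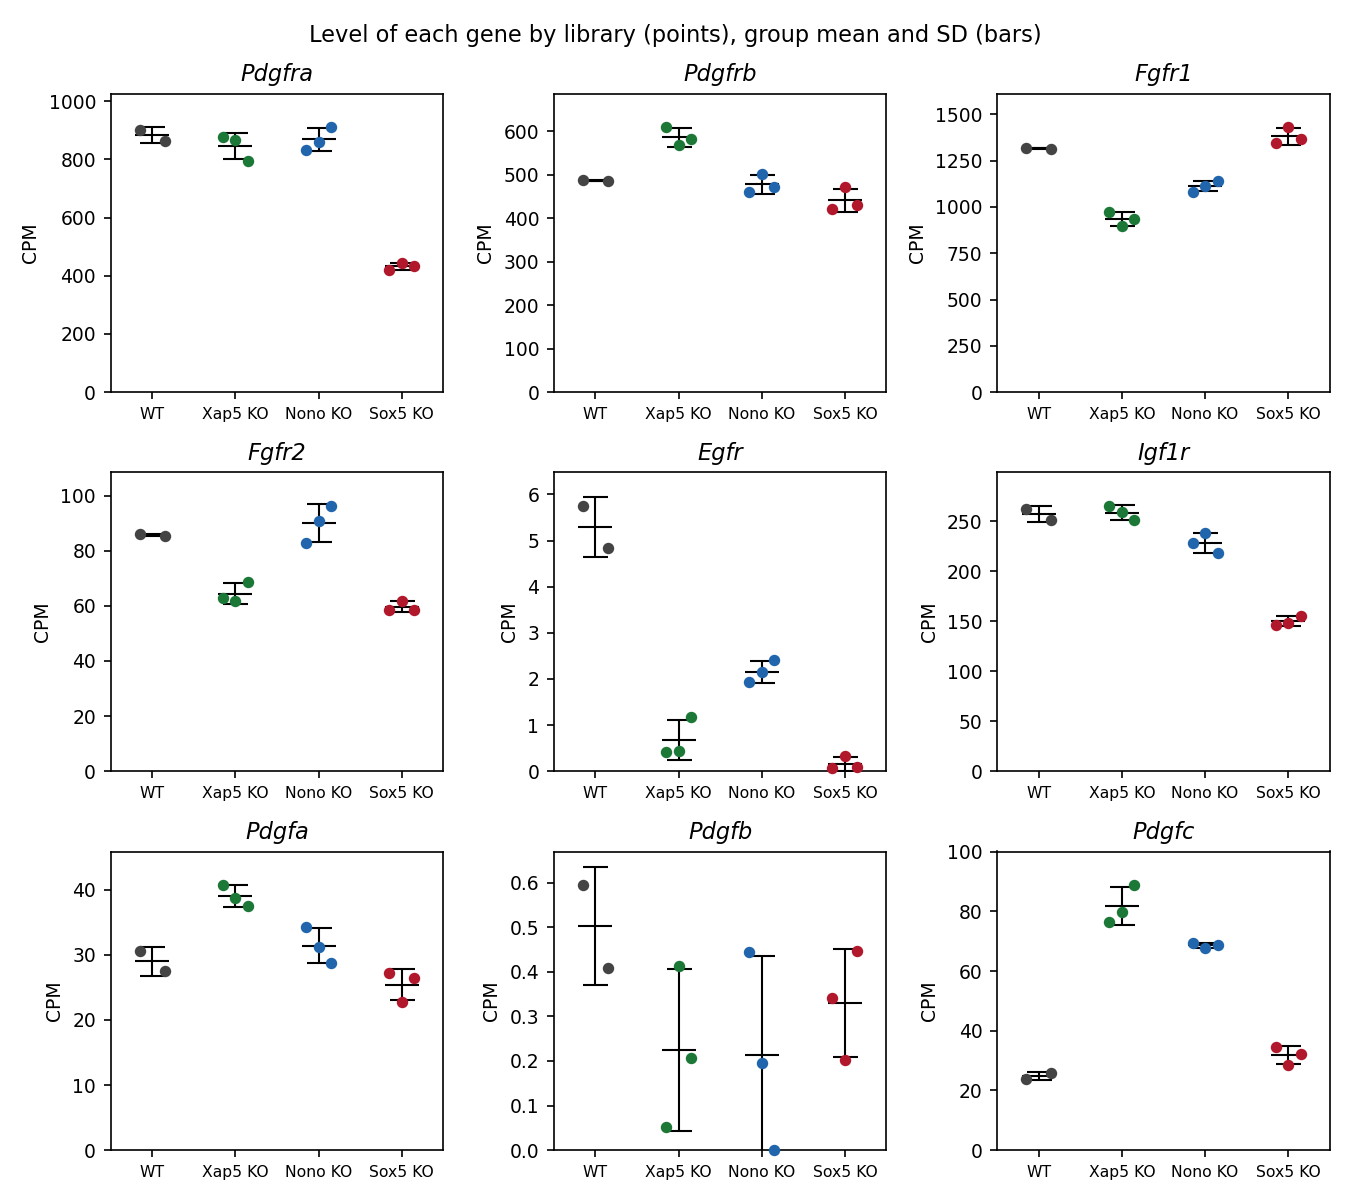
CPM (linear axes, each starting at 0) of 9 members by genotype (Pdgfd, at 0 throughout, is not drawn), with 1 point per library and bars for the mean and SD, cut off at 0. The 3 Sox5 KO libraries lie at 421 to 442.5 CPM for Pdgfra against 793.8 to 912.4 CPM in the other 8, and Pdgfc is at 67.9 to 88.9 CPM in Xap5 KO and Nono KO against 23.9 to 25.7 CPM in WT.

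Of the 9 members that could be tested, 6 were called in Xap5 KO against WT, 3 higher and 3 lower, where 45.5% of all tested genes were called (23.2% higher and 22.3% lower). In Nono KO against WT 4 were called, 1 higher and 3 lower, against 48.6% of all tested genes (23.5% higher and 25.1% lower). In Sox5 KO against WT 5 were called, 1 higher and 4 lower, against 60.9% of all tested genes (30.6% higher and 30.3% lower). The members' shares were thus 66.7%, 44.4% and 55.6%, above the background in Xap5 KO and slightly below it in Nono KO and Sox5 KO. A share of only 9 genes is coarse, and its difference from the background was not tested. Their median log2 fold changes were -0.063, -0.027 and -0.52, beside medians over all tested genes of 0.0026, -0.020 and -0.0058. The 3 comparisons share the WT libraries. Between knockouts, 7 of the 9 members were called in each comparison. In Xap5 KO against Nono KO 4 were higher and 3 lower, where 53% of all tested genes were called (27.1% higher and 25.9% lower). Against Sox5 KO, 6 were higher and 1 lower both in Xap5 KO, where 61.6% of all tested genes were called (31.1% higher and 30.4% lower), and in Nono KO, where 63.5% were called (30.9% higher and 32.6% lower).

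Pdgfra (ENSMUSG00000029231, chromosome 5), the receptor for PDGF-A and PDGF-C, fell in Sox5 KO and in no other knockout by the same test. Its level was 903 and 865 CPM in the WT libraries, 877, 867 and 794 CPM in Xap5 KO, 831.5, 861 and 912 CPM in Nono KO, and 421, 442.5 and 433 CPM in Sox5 KO. The Sox5 KO libraries lay below all others, and the other 3 genotypes overlapped. The change in Sox5 KO was a log2 fold change of -1.03 (SE 0.0602, edgeR adjusted p = 4.27e-12), a level 48.9% of WT. Leaving out each library in turn gave -1.07 to -1.01. In Xap5 KO the log2 difference was -0.063 (95% interval -0.18 to 0.056, adjusted p = 0.427), and in Nono KO it was -0.025 (95% interval -0.14 to 0.094, adjusted p = 0.762). Scaled to library totals without TMM, which moved the median of all genes in Nono KO to -0.18, the Nono KO value was -0.19 and was called (adjusted p = 0.00825). The differences between knockouts were tested directly: Pdgfra was higher than in Sox5 KO by 0.97 in Xap5 KO (adjusted p = 3.43e-12) and by 1.01 in Nono KO (adjusted p = 1.37e-12). Between Xap5 KO and Nono KO the log2 difference was -0.037 (95% interval -0.14 to 0.069).

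The longest transcript of Pdgfra has 6834 bases, and transcript length moved with the changes in Sox5 KO across all genes. In 5 equal bins of tested genes from the shortest to the longest transcripts, the median log2 fold change in Sox5 KO was 0.45, 0.18, 0.018, -0.14 and -0.47. The same medians spanned only 0.073 to -0.056 in Xap5 KO and 0.097 to -0.10 in Nono KO. Pdgfra, Pdgfrb, Egfr and Igf1r belonged to the bin of longest transcripts, which starts at 5246 bases. With transcript length and GC content entered as an offset, the Pdgfra change in Sox5 KO was -0.61 (edgeR adjusted p = 3.46e-09), smaller but still called. The part of transcript length in these changes was not tested.

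**Figure D2:**
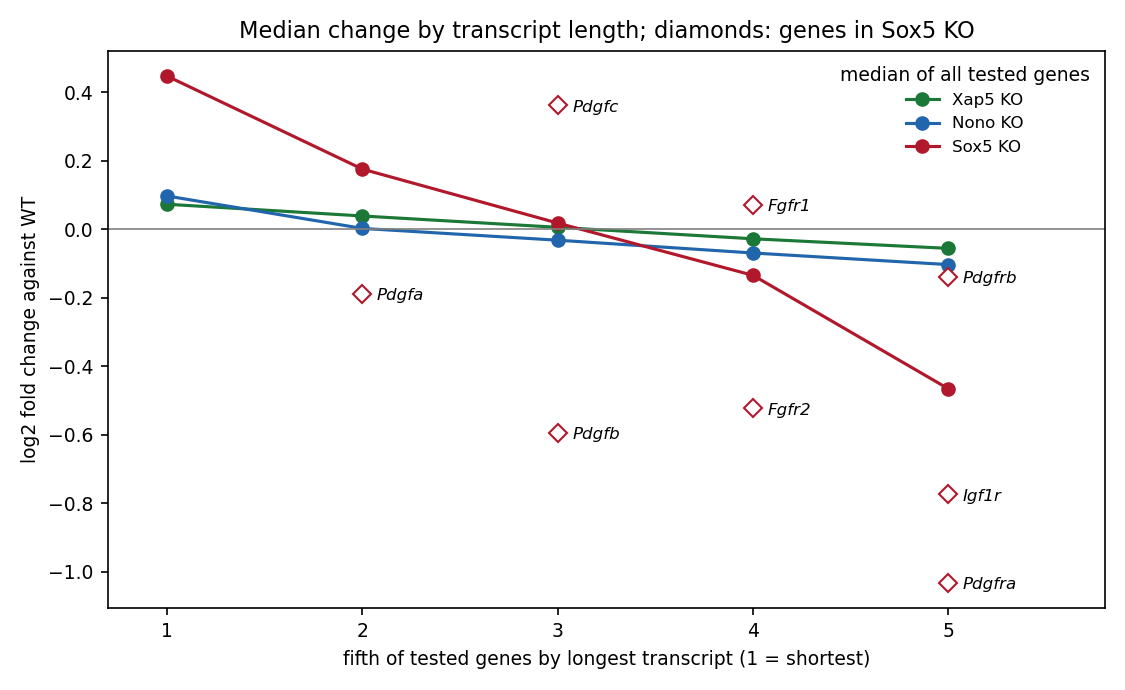
Median log2 fold change against WT of all tested genes in 5 bins of transcript length (1 line per knockout), with 8 members as diamonds at their Sox5 KO value in their own bin; Egfr (-5.00, bin 5) lies outside the axis and is not drawn. In Sox5 KO the line falls from 0.45 to -0.47, with Pdgfra at -1.03 and Igf1r at -0.77 below it in the bin of longest transcripts.

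The 5 tested genes listed next had the profile nearest to that of Pdgfra over the 11 libraries, measured as the mean absolute difference in centred log2 CPM. They were Antxr1 (0.0458), Pds5b (0.0571), Gatad2b (0.0612), Prdm2 (0.0633) and Zmym4 (0.0635), against a median of 0.503 over all tested genes. All 5 also have long transcripts, of 5253 to 7438 bases. They fell in Sox5 KO by 0.98, 0.93, 1.10, 1.10 and 0.98 on the log2 scale, which follows from their choice by likeness to Pdgfra. Among the members, Igf1r came nearest to Pdgfra (0.127, rank 159), and Egfr was farthest (1.34).

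Pdgfrb (ENSMUSG00000024620, chromosome 18), the receptor that binds PDGF-B and PDGF-D, rose modestly in Xap5 KO. Its level was 488 and 486 CPM in WT, 611, 568 and 583 CPM in Xap5 KO, 460.4, 502 and 471 CPM in Nono KO, and 422, 472 and 431 CPM in Sox5 KO. All 3 Xap5 KO libraries were above every other library, Nono KO overlapped WT, and Sox5 KO lay just below WT. In Xap5 KO the log2 fold change was 0.27 (SE 0.0619, edgeR adjusted p = 0.0012), and Xap5 KO was also above Nono KO by 0.30 (adjusted p = 0.00011) and above Sox5 KO by 0.41 (adjusted p = 1.44e-06). In Nono KO the difference from WT was -0.027 (95% interval -0.15 to 0.093), or -0.19 and called (adjusted p = 0.00835) with library totals. In Sox5 KO it was -0.14 and missed the threshold (adjusted p = 0.0535). That value depended on the fit, and in 8 alternatives it was called lower. Among these were library totals (-0.26, edgeR adjusted p = 0.000688) and the DESeq2 Wald test (-0.14, adjusted p = 0.0381). Another was the edgeR fit without the 2nd Sox5 KO library (-0.19, adjusted p = 0.0138). With the length and GC offset in edgeR the value was 0.17 and called in the other direction (adjusted p = 0.00903).

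The balance of the PDGF receptors moved with these changes. The ratio of Pdgfra to Pdgfrb, each per kb, was 1.47 and 1.41 in WT, 1.14, 1.21 and 1.08 in Xap5 KO, 1.43, 1.36 and 1.54 in Nono KO, and 0.792, 0.744 and 0.797 in Sox5 KO. Nono KO overlapped WT, Xap5 KO lay below both, and Sox5 KO was lowest and the only genotype with every library below 1. Exact two-sided permutation tests of 18 such ratio differences cannot go below p = 0.2 for 3 libraries against 2 or 0.1 for 3 against 3. Every comparison of this ratio reached the smallest p (adjusted p = 0.24 against WT and 0.225 between knockouts), except Nono KO against WT, where p was 1.

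Fgfr1 (ENSMUSG00000031565, chromosome 8), the most abundant member and a receptor for many FGFs, fell in Xap5 KO and Nono KO. Its level was 1317 and 1314 CPM in WT, 971, 896 and 933 CPM in Xap5 KO, 1083, 1111 and 1139 CPM in Nono KO, and 1346, 1433 and 1367 CPM in Sox5 KO. The 4 genotypes did not overlap, with Xap5 KO lowest and Sox5 KO highest. The log2 fold change was -0.50 in Xap5 KO (SE 0.0569, edgeR adjusted p = 3.8e-07), which left 70.9% of the WT level, and -0.24 in Nono KO (SE 0.0571, adjusted p = 0.00128). Xap5 KO was below Nono KO by a log2 difference of -0.25 (adjusted p = 0.000315). In Sox5 KO the difference from WT was 0.071 (95% interval -0.042 to 0.18, adjusted p = 0.3). With the length and GC offset the Nono KO change was -0.11 and no longer called (adjusted p = 0.0619), while that in Sox5 KO became 0.33 and was called (adjusted p = 6.72e-06).

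Fgfr2 (ENSMUSG00000030849, chromosome 7), another FGF receptor gene, whose exons overlap those of Ctbp2 on the same strand, showed another pattern. It stood at 86.0 and 85.5 CPM in WT, 63.0, 61.7 and 68.6 CPM in Xap5 KO, 82.7, 90.9 and 96.3 CPM in Nono KO, and 58.6, 61.9 and 58.5 CPM in Sox5 KO. Xap5 KO and Sox5 KO were both below WT and overlapped each other, and Nono KO overlapped WT. The log2 fold change was -0.41 in Xap5 KO (SE 0.0739, edgeR adjusted p = 0.000103) and -0.52 in Sox5 KO (SE 0.0741, adjusted p = 3.04e-06). In Nono KO the difference was 0.069 (95% interval -0.076 to 0.21). The ratio of Fgfr2 to Fgfr1 per kb was therefore lowest in Sox5 KO, at 0.0488 to 0.0495, against 0.0740 to 0.0743 in WT.

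Egfr (ENSMUSG00000020122, chromosome 11), the EGF receptor, was expressed at a low level in WT and was lower in every knockout. Its counts were 232 and 213 in WT, 16, 18 and 46 in Xap5 KO, 78, 88 and 87 in Nono KO, and 2, 10 and 3 in Sox5 KO. In CPM these were 5.76 and 4.83 in WT, 0.412, 0.438 and 1.19 in Xap5 KO, 1.93, 2.14 and 2.40 in Nono KO, and 0.0619, 0.339 and 0.0957 in Sox5 KO. The genotypes did not overlap, and they ran in the order WT, Nono KO, Xap5 KO, Sox5 KO. In Sox5 KO the log2 fold change was -5.00 (SE 0.549, edgeR adjusted p = 8.51e-08), and 2 of the 3 libraries were at or under 3 counts. Without the 2nd Sox5 KO library, which held 10 of the 15 counts, it was -6.02, and with the length and GC offset it was -4.33. In Xap5 KO it was -2.96 (SE 0.464, adjusted p = 2.19e-05), and -3.63 without the 3rd Xap5 KO library. In Nono KO it was -1.29 (SE 0.437, adjusted p = 0.0183), a call that was lost without the 1st WT library (-1.16, adjusted p = 0.13), the 2nd WT library (-1.41, adjusted p = 0.058) or the 1st Nono KO library (-1.22, adjusted p = 0.0527).

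The knockouts also differed from one another in Egfr. Nono KO was above Sox5 KO by a log2 difference of 3.70 (edgeR adjusted p = 3.01e-06), or 4.72 without the 2nd Sox5 KO library and 3.04 with the length and GC offset. Xap5 KO was below Nono KO by a log2 difference of -1.67 (adjusted p = 0.00277), or -2.35 without the 3rd Xap5 KO library. Xap5 KO was above Sox5 KO by 2.04 (adjusted p = 0.00315). That last value moved to 1.37 without the 3rd Xap5 KO library, to 3.06 without the 2nd Sox5 KO library and to 1.43 with the offset, and was called each time.

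Igf1r (ENSMUSG00000005533, chromosome 7), the receptor for IGF1 and IGF2, fell in Sox5 KO alongside Pdgfra. Its level was 262.9 and 251.5 CPM in WT, 266, 259 and 251 CPM in Xap5 KO, 228, 238 and 219 CPM in Nono KO, and 147, 148 and 156 CPM in Sox5 KO. Sox5 KO was far below the others, Nono KO lay just below WT, and Xap5 KO overlapped WT. The log2 fold change in Sox5 KO was -0.77 (SE 0.0579, edgeR adjusted p = 2.31e-10), a level 58.4% of WT. With the length and GC offset it was -0.072 and not called (adjusted p = 0.274). Its longest transcript has 11409 bases, more than that of any other tested member. The difference between Nono KO and Sox5 KO went from 0.60 (adjusted p = 2.29e-09) to -0.0016 with the same offset, and that between Xap5 KO and Sox5 KO from 0.78 to 0.20 (adjusted p = 0.00157). In Nono KO the change from WT was -0.17 (SE 0.058, adjusted p = 0.0184), and that call was lost with the offset (-0.073, adjusted p = 0.282), without the 1st WT library (-0.14, adjusted p = 0.187), the 2nd (-0.19, adjusted p = 0.0554) or the 3rd Nono KO library (-0.14, adjusted p = 0.0707). In Xap5 KO the log2 difference was 0.0086 (95% interval -0.11 to 0.12).

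**Figure D3:**
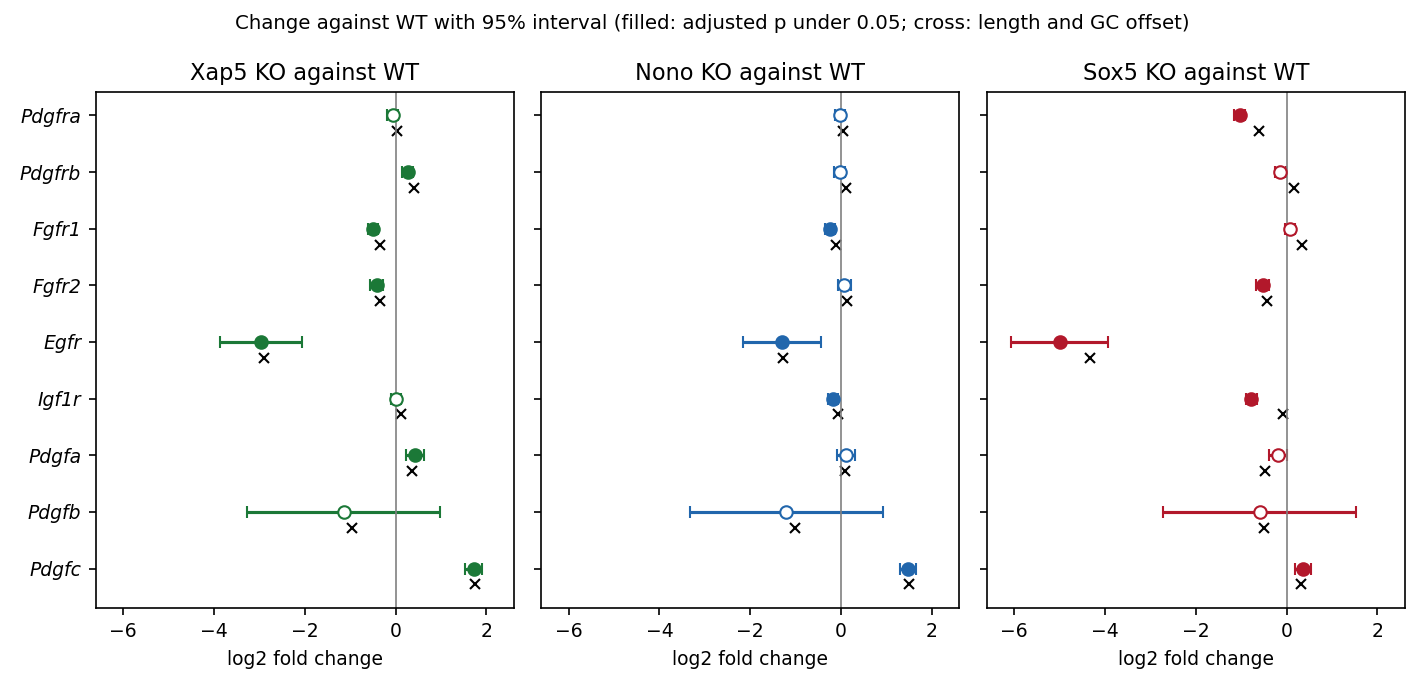
Log2 fold change against WT of the 9 tested members in each knockout, with 95% intervals, filled where the edgeR call was made, and crosses for the value with the length and GC offset. Pdgfc is higher in all 3 knockouts (1.72, 1.47 and 0.36), Egfr is lower in all 3 (-2.96, -1.29 and -5.00), and Pdgfra departs from 0 in Sox5 KO (-1.03).

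Among the ligand genes, Pdgfc rose in all 3 knockouts. Pdgfc (ENSMUSG00000028019, chromosome 3) encodes PDGF-C, which is secreted in a latent form and needs proteolytic activation before it binds PDGFR-alpha. It stood at 23.9 and 25.7 CPM in WT, 76.4, 79.9 and 88.9 CPM in Xap5 KO, 69.4, 67.9 and 68.6 CPM in Nono KO, and 34.7, 28.6 and 32.3 CPM in Sox5 KO. Every knockout library was above both WT libraries, and the 4 genotypes did not overlap. The log2 fold change was 1.72 in Xap5 KO (SE 0.0935, edgeR adjusted p = 3.4e-12), a level 329.6% of WT. It was 1.47 in Nono KO (SE 0.0927, adjusted p = 2.67e-11), or 276.8% of WT, and 0.36 in Sox5 KO (SE 0.0911, adjusted p = 0.00175). The rise in Sox5 KO was smaller than in Xap5 KO by a tested log2 difference of 1.36 (adjusted p = 6.19e-12) and smaller than in Nono KO by 1.11 (adjusted p = 1.2e-10). Xap5 KO was above Nono KO by 0.25 (adjusted p = 0.00948), a call that was lost without the 3rd Xap5 KO library (0.17, adjusted p = 0.0906).

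Pdgfa (ENSMUSG00000025856, chromosome 5), the ligand classically tied to PDGFR-alpha, rose in Xap5 KO. It stood at 30.6 and 27.5 CPM in WT, 40.8, 38.8 and 37.6 CPM in Xap5 KO, 34.3, 31.2 and 28.8 CPM in Nono KO, and 27.2, 22.7 and 26.4 CPM in Sox5 KO. Xap5 KO was above all other libraries, Nono KO overlapped WT, and Sox5 KO lay just below WT. The log2 fold change was 0.43 in Xap5 KO (SE 0.101, edgeR adjusted p = 0.00157). The differences from WT were 0.11 in Nono KO (95% interval -0.083 to 0.31) and -0.19 in Sox5 KO (95% interval -0.39 to 0.0090, adjusted p = 0.113). With the length and GC offset the Sox5 KO value was -0.48 and was called (adjusted p = 0.000467). It was also called with library totals (-0.30, adjusted p = 0.01455). Sox5 KO was below Xap5 KO and Nono KO in direct tests, by log2 differences of 0.62 (adjusted p = 4.92e-06) and 0.30 (adjusted p = 0.00621).

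Pdgfb (ENSMUSG00000000489, chromosome 15) and Pdgfd (ENSMUSG00000032006, chromosome 9) gave little or no signal. Pdgfb had 24 and 18 counts in WT, 2, 17 and 8 in Xap5 KO, 18, 8 and 0 in Nono KO, and 11, 6 and 14 in Sox5 KO. In CPM all genotypes overlapped, and differences were not detectable at this depth: the log2 values of -1.15, -1.21 and -0.60 had SEs of 1.08 each. Pdgfd had 0 counts in all 11 libraries, which allows up to 3 counts, or 0.0681 to 0.102 CPM depending on the library, and covers counting error only. It was therefore not tested.

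Between the ligands with signal, the balance shifted from Pdgfa to Pdgfc in Xap5 KO and Nono KO. The ratio of Pdgfc to Pdgfa per kb was 0.456 and 0.548 in WT, 1.10, 1.20 and 1.39 in Xap5 KO, 1.18, 1.28 and 1.39 in Nono KO, and 0.745, 0.735 and 0.716 in Sox5 KO. All libraries of Xap5 KO and Nono KO were above 1 and overlapped each other, and Sox5 KO lay between them and WT. The exact permutation p was at its smallest, 0.2, in each knockout against WT (adjusted p = 0.24). Pdgfc made up 33.1% ± 2.92 (SD, n = 2) of the summed PDGF ligand level per kb in WT, 42.0% ± 0.546 (n = 3) in Sox5 KO, 54.9% ± 2.88 in Xap5 KO and 56.0% ± 2.11 in Nono KO. That sum was 21.3 ± 0.757 CPM per kb in WT and 21.5 ± 2.05 in Sox5 KO, against 42.2 ± 1.13 in Xap5 KO and 34.8 ± 1.55 in Nono KO.

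The summed level of the 6 receptor genes varied less: it was 522.5 ± 5.39 CPM per kb in WT, with Nono KO at 476 ± 14.1, Xap5 KO at 454.5 ± 14.5 and Sox5 KO at 445.5 ± 15.8. Its make-up varied more. Fgfr1 took 49.95% of it in WT and 61.5% in Sox5 KO, but 46.3% in Nono KO and 40.7% in Xap5 KO. Pdgfra took 24.75% in WT and 14.2% in Sox5 KO, with 26.7% in Nono KO and 27.2% in Xap5 KO. Pdgfrb took 23.8% in Xap5 KO and 17.2% to 18.5% elsewhere. Relative to the other receptors, then, Sox5 KO cells held the most Fgfr1 RNA and the least Pdgfra RNA, and Xap5 KO cells the most Pdgfrb RNA. These sums and shares were made without the length and GC offset. With it, the log2 changes in Sox5 KO were 0.33 for Fgfr1, 0.17 for Pdgfrb and -0.61 for Pdgfra. The sums were not computed with the offset, so the place of Sox5 KO as the lowest sum is not settled.

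**Figure D4:**
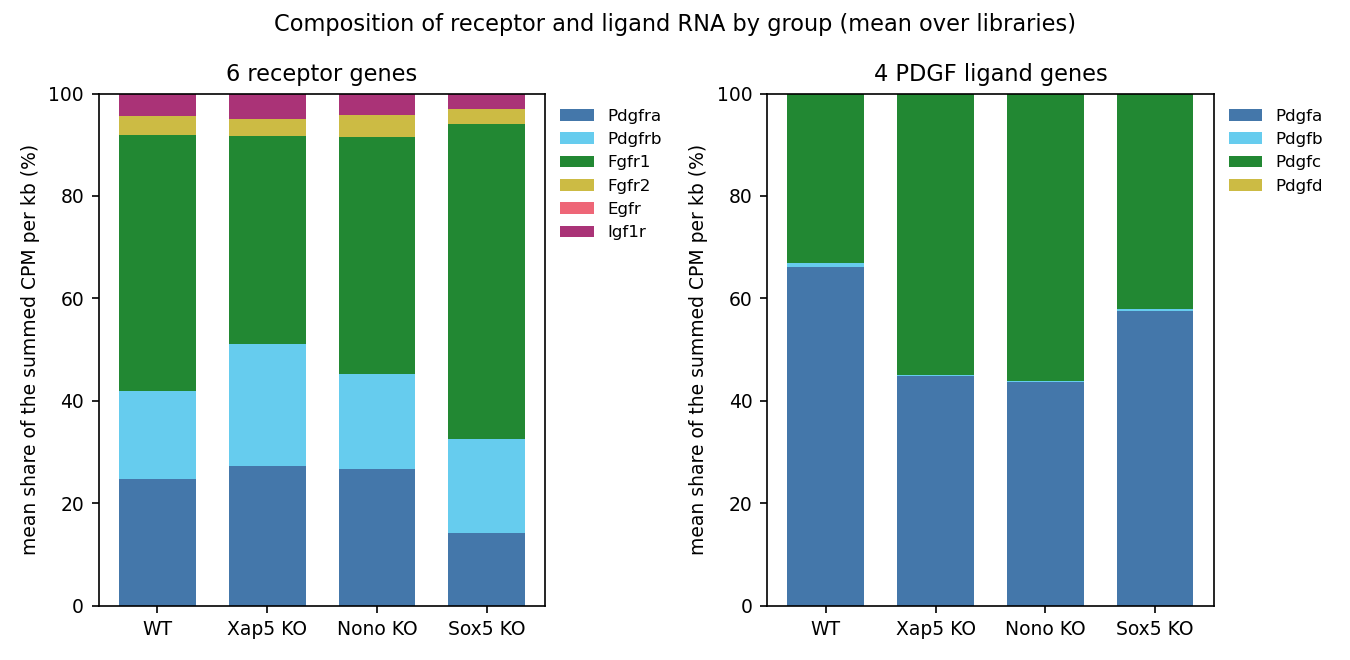
Share in percent of the summed CPM per kb of the 6 receptor genes and of the 4 PDGF ligand genes, as stacked bars of genotype means. Pdgfra takes 14.2% of the receptor sum in Sox5 KO against 24.75% to 27.2% elsewhere, and Pdgfc takes 54.9% and 56.0% of the ligand sum in Xap5 KO and Nono KO against 33.1% in WT.

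The lists of other pathway genes that follow are to be read beside all tested genes, of which 23.2% rose and 22.3% fell in Xap5 KO, 23.5% and 25.1% in Nono KO, and 30.6% and 30.3% in Sox5 KO, and beside the median of -0.47 of the longest transcripts in Sox5 KO. Among 15 other receptor genes, 9 were tested, and 6 fell in Sox5 KO (median log2 fold change of the list -0.55), 4 in Nono KO (median -0.21) and 2 in Xap5 KO (median -0.11). In Nono KO 1 rose, and none did in the others. This list reaches beyond the families of the members: the 2 that fell in Xap5 KO were Igf2r and the VEGF receptor gene Flt1. Flt1 changed by -0.72 in Xap5 KO and -0.85 in Sox5 KO, with -0.21 and no call in Nono KO. Igf2r, a receptor that clears IGF2, fell in all 3: its log2 fold change was -0.68 in Xap5 KO, -0.45 in Sox5 KO and -0.22 in Nono KO. Insr, the insulin receptor, fell in Nono KO (-0.33) and Sox5 KO (-0.55), with -0.11 and no call in Xap5 KO. Fgfrl1, an FGF receptor without a kinase domain, fell in Sox5 KO (-0.72) and rose in Nono KO (0.22), with -0.15 and no call in Xap5 KO. Of 24 ligands of the FGF, EGF and IGF receptors, 14 were tested, and 5 rose and 1 fell in both Xap5 KO and Nono KO, while 4 rose and 3 fell in Sox5 KO. The medians of that list were, on the log2 scale, 0.17 in Xap5 KO, -0.12 in Sox5 KO and -0.046 in Nono KO. Igf2, a ligand of IGF1R, was at 2.03 ± 1.97 CPM in WT (SD, n = 2), 47.9 ± 8.25 CPM in Xap5 KO, 38.2 ± 3.02 CPM in Nono KO and 230.3 ± 25.6 CPM in Sox5 KO (n = 3 each). Its log2 fold changes of 4.59, 4.26 and 6.85 depended on which WT library was used: they were 6.21, 5.90 and 8.49 without the 1st and 3.80, 3.49 and 6.07 without the 2nd, and were called each time.

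Of 17 co-receptors and PDGF-activating proteases, 15 were tested, with 2 higher and 6 lower in Xap5 KO, 4 and 6 in Nono KO, and 3 and 9 in Sox5 KO, and medians of -0.17, -0.087 and -0.55. Plau, which encodes the urokinase protease, rose in all 3 knockouts, by 1.83, 2.22 and 1.81 on the log2 scale (edgeR adjusted p = 2.58e-09, 9.36e-11 and 1.29e-09). The protease genes Plat and Furin did not follow it. In the same order, Plat changed by -0.89, -0.087 and 0.55, with no call in Nono KO. Furin changed by 0.14, -0.54 and -0.19, with no call in Xap5 KO. Gpc4, a heparan sulfate proteoglycan, was at 33.7 ± 1.84 CPM in WT (SD, n = 2), 1.40 ± 0.370 CPM in Xap5 KO, 134.3 ± 11.3 CPM in Nono KO and 0.0997 ± 0.123 CPM in Sox5 KO (n = 3 each). Its log2 fold changes were -4.58, 2.00 and -8.40, and all were called, the last being -9.92 without the 2nd Sox5 KO library.

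Of 23 tested feedback inhibitors of receptor signalling, 5 were higher and 10 lower in Xap5 KO, 6 and 11 in Nono KO, and 1 and 12 in Sox5 KO, where 45.5%, 48.6% and 60.9% of all tested genes were called. The list's medians were -0.076, -0.22 and -0.41 in that order. Spry1, a Sprouty inhibitor of RAS-ERK signalling, was the gene that rose in all 3, by 2.57, 4.06 and 1.40 on the log2 scale (edgeR adjusted p = 5.23e-10, 3.7e-13 and 2.11e-06). Cblb, a ubiquitin ligase for activated receptors, fell by 0.42, 0.52 and 1.22. Dusp6, a phosphatase that acts on ERK, fell in all 3 as well, by 0.88, 1.15 and 1.56 on the log2 scale (adjusted p = 3.25e-07, 5.27e-09 and 2.7e-11), from 65.0 ± 0.106 CPM in WT (SD, n = 2). Of 10 genes whose transcription responds to ERK, 2 were higher and 4 lower in Xap5 KO, 2 and 6 in Nono KO, and 1 and 7 in Sox5 KO, beside the same 45.5%, 48.6% and 60.9% of all tested genes. The list's medians were -0.46, -0.74 and -0.64 in that order. Etv1, an ETS factor, fell by 1.33, 1.20 and 1.97 on the log2 scale (adjusted p = 0.00203, 0.00317 and 0.000128).

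Of 6 genes tied to PDGFR-alpha at the cilium, which include Cblb, 1 was higher and 2 lower in Xap5 KO, 2 and 1 in Nono KO, and 1 and 4 in Sox5 KO, and the medians were -0.095, 0.16 and -0.49. Ift20, an intraflagellar transport protein, was at 17.1 ± 0.269 CPM in WT (SD, n = 2), 19.7 ± 1.92 CPM in Xap5 KO, 33.9 ± 3.47 CPM in Nono KO and 37.4 ± 2.22 CPM in Sox5 KO (n = 3 each). Its log2 fold changes were 0.21 in Xap5 KO (edgeR adjusted p = 0.124), 0.99 in Nono KO (adjusted p = 1.84e-07) and 1.13 in Sox5 KO (adjusted p = 1.47e-08). In Sox5 KO, Ift20 thus rose where Pdgfra fell, and in Nono KO it rose where Pdgfra was not called. Across all tested genes in Sox5 KO, the median was 0.45 for the bin of shortest transcripts and -0.47 for the longest. The part of transcript length in this contrast was not tested.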

How the data were processed

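The authors deposited 1 table of whole-number gene values for the 11 libraries, which are read here as estimated counts rounded by the authors: there were 3302 entries of 2 but 857 of 1. The submitters' processing notes name HISAT2 2.1.0, StringTie 1.3.3b, DESeq2 1.12.4 and the builds GRCm39 and mm39, without their roles, and the annotation and the handling of strand are not given in the sources used here. Of 21684 genes, 5060 were at 0 everywhere.

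All comparisons came from 1 fit in edgeR 4.0.16 (R 4.3.3), with 1 mean per genotype, no replicate block and TMM scaling. The expression filter (minimum count 10, minimum total 15) left 13332 genes. Benjamini-Hochberg adjustment ran over these genes. SEs were derived from the test statistic, and the common biological coefficient of variation was 10.6%. Depth ran from 30205878 to 43498383 counts, and a count of 0 allows up to 3 counts. DESeq2 1.42.0, other scalings, no filter, a replicate block, a length and GC offset, the compared genotypes alone and leaving out each library were the alternatives. Lengths, GC, chromosomes and overlaps came from GENCODE M21 (GRCm38), which covered 13293 of the tested genes. Exons of Fgfr2 overlapped Ctbp2 on the same strand and those of Pdgfra overlapped Mir7025, while Pdgfra, Pdgfa, Pdgfc and Fgfr1 overlapped non-coding genes on the opposite strand, so their counts are uncertain if strand was not used.

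The members and lists were chosen with earlier results of these data known. All members are named. Of each other list, at most the 3 called genes with the largest change per comparison with WT could be named, and a gene so named is given in the other knockouts too. Plat and Furin are named outside that rule, to stand beside Plau. The marker genes named were picked after their values were seen. The 5 genes nearest to Pdgfra were those with the smallest mean absolute difference in centred log2 CPM (prior count 2).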

Additional observations from a re-analysis of the deposited data

How the results depend on the processing

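Of 36 called results for the members (of 54 tested), 30 kept their direction and call under every alternative, and the other 6 are named in the report. Of 971 alternative values for members, 922 kept direction and call, 10 lost and 18 gained a call with the same direction, and 21 changed sign. The number of members called in Nono KO against WT was 4 (1 higher, 3 lower), and became 2 with the length and GC offset, 6 (1 higher, 5 lower) with library totals in place of TMM and 2 to 4 when 1 library was left out. In Sox5 KO it was 5 (1 higher, 4 lower), and became 7 with the offset (3 higher, 4 lower) and 7 with library totals (1 higher, 6 lower). Pdgfrb gained a call as lower in Sox5 KO in 8 alternatives, library totals among them. Sign changes with that offset were Pdgfra in Xap5 KO (0.020) and Nono KO (0.041), Pdgfrb in Nono KO (0.10), in Sox5 KO (0.17) and between Nono KO and Sox5 KO (-0.064), and Igf1r between Nono KO and Sox5 KO (-0.0016). With library totals, the median of all genes shifted from -0.020 to -0.18 in Nono KO, from -0.0058 to -0.12 in Sox5 KO and from 0.0097 to 0.12 between Xap5 KO and Nono KO. Sign changes under it were Igf1r in Xap5 KO (-0.045), Pdgfa (-0.049) and Fgfr2 (-0.095) in Nono KO, Fgfr1 in Sox5 KO (-0.044) and Pdgfra between Xap5 KO and Nono KO (0.073). Igf1r in Xap5 KO was -0.00054 without the filter and -0.0025 with the compared genotypes alone. Leaving out 1 library gave -0.030 to 0.030 for Igf1r in Xap5 KO, -0.062 to 0.0098 for Pdgfra in Nono KO and -0.74 to 1.14 for Pdgfb between Xap5 KO and Nono KO. The cause of these changes was not tested.

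Replicate numbers are shared across genotypes, and same-numbered libraries deviated together at most weakly. Their correlations were -0.0226 to 0.0465 over 15 pairs (median 0.0082), against -0.0465 to 0.0165 over the 30 other pairs (median -0.00395). Still, 10 of 11 libraries correlated best with their own number, so a weak shared deviation is not excluded. With the replicate block, 5916, 6340 and 7911 genes were called against WT (Xap5 KO first, Sox5 KO last), beside 6064, 6476 and 8121 without it, and the members called stayed at 6, 4 and 5. Low counts limit Egfr, Pdgfb and Pdgfd. WT had 2 libraries, so its spread is poorly known.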

Other observations

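Of 35 adaptors and transducers that carry the signal of these receptors, 8 were higher and 15 lower in Xap5 KO, 7 and 12 in Nono KO, and 8 and 19 in Sox5 KO, each against WT. Of all tested genes, 23.2% rose and 22.3% fell in Xap5 KO, 23.5% and 25.1% in Nono KO, and 30.6% and 30.3% in Sox5 KO. The median log2 fold changes of the 35 genes were -0.12, -0.091 and -0.30, the last beside -0.47 for the bin of longest transcripts in Sox5 KO. Irs1, the main adaptor of the insulin and IGF1 receptors, rose by 1.37 on the log2 scale in Nono KO and by 0.46 in Xap5 KO, and changed by -1.36 in Sox5 KO. With the length and GC offset the Sox5 KO value was -0.76 and still called. Pik3r1, a regulatory subunit of PI3K, fell by 1.21 in Sox5 KO and by 0.23 in Xap5 KO, and rose by 0.62 in Nono KO. Grb14, an inhibitory adaptor of the insulin receptor counted among the feedback inhibitors, rose by 1.93 in Nono KO and 0.28 in Xap5 KO, and fell by 0.64 in Sox5 KO. All these changes were called by edgeR.

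The other IGF ligand gene, Igf1, was called higher in Xap5 KO (4.62) and Nono KO (3.03) and not in Sox5 KO (-0.0064), from 1.15 ± 1.27 CPM in WT (SD, n = 2). Without the 1st WT library these values were 3.80 and 2.23, and without the 2nd they were 6.83 and 5.26, each called by edgeR.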
